A study of Mus musculus with 4 samples.

Results

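The 10 genes described here encode the core of the actin machinery of leukocytes: the cytoplasmic actins Actb and Actg1, the beta-thymosins Tmsb4x and Tmsb10, profilin 1 (Pfn1), cofilin 1 (Cfl1), coronin 1A (Coro1a) and the Arp2/3 subunits Arpc1b, Arpc2 and Arpc3. They were taken by symbol, as 10 of the 31053 genes of each count matrix, and all 10 were found. Their levels were followed by cell type and library in mouse liver mononuclear cells. Actin monomers assemble into filaments that shape the cortex of a white blood cell, carry it through tissue and build its contact with a target cell. Thymosins hold monomers in reserve, profilin delivers them to growing filament ends, cofilin severs old filaments, the Arp2/3 complex starts branches, and coronin 1A binds filaments in blood cells. Actin genes are also known targets of serum response factor, whose myocardin-related cofactors are held back by free actin monomers.

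Droplet single-cell RNA sequencing had been performed on liver mononuclear cells, enriched on a Percoll gradient, of C57BL/6 mice aged 8 to 10 weeks, with 1 library in each of 4 conditions. Naïve mice received no concanavalin A (ConA), a plant lectin that activates T cells and causes an acute hepatitis. ConA+Veh mice received ConA and vehicle, ConA+TCDD mice ConA and TCDD, and ConA+FICZ mice ConA and FICZ, and cells were taken 24 hours after ConA. TCDD, a dioxin, and FICZ, a tryptophan photoproduct, are ligands of the aryl hydrocarbon receptor (AhR), a transcription factor that binds DNA at a GCGTG core. The labels give neither doses nor the number of mice in a library. With 1 library per condition there was no replicate check, so conditions were compared without p-values. All intervals are at 95% and cover counting error alone.

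The libraries held 1880 to 2779 cells with a median of 2161 (Naïve) to 3984 (ConA+Veh) UMIs, the unique molecular identifiers that count captured RNA molecules. A cell was placed in a gate (a class set by markers) when it held at least 2 markers of that list and led every other list by at least 2, except that the T and NK lists did not compete. This gated 7785 of 9300 cells, and 205 (Naïve) to 486 (ConA+Veh) per library stayed outside. At least 8 of the 9 or 10 markers of each of the B, T, NK, mononuclear phagocyte and neutrophil gates were in 10% or more of its cells, and Cd79a was in 87.4 to 99.4% of B cells. NK cells had, by rule, no T marker, while cells with T and NK markers, such as NKT cells, were in the T gate. The libraries were not equally deep within a gate: the median T cell held 2709 UMIs in Naïve, 6943 in ConA+Veh, 6086 in ConA+TCDD and 8821 in ConA+FICZ. Pairs of libraries shared 4 to 15 cell barcodes, and 17 to 33 cells per library held at least 2 B and 2 T markers, with no doublet caller run.

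The 10 genes together gave 2.90% of all UMIs in Naïve, 3.32% in ConA+Veh, 2.69% in ConA+TCDD and 3.003% in ConA+FICZ. Mononuclear phagocytes and NK cells gave them the largest share and B cells the smallest of the 4 main gates, in every library. In mononuclear phagocytes the share was 4.27% in Naïve, 4.69% in ConA+Veh, 4.44% in ConA+TCDD and 4.23% in ConA+FICZ. In NK cells it was 4.20%, 4.66%, 4.26% and 4.83% in the same order. The intervals of these gates overlapped in Naïve (4.21 to 4.34% and 4.11 to 4.30%) and in ConA+Veh (4.66 to 4.73% and 4.61 to 4.72%), and the order turned in ConA+FICZ.

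Neutrophils followed at 3.63 to 3.82%, and T cells held 3.38% in Naïve, 3.32% in ConA+Veh, 2.69% in ConA+TCDD and 3.08% in ConA+FICZ. B cells held 2.32%, 2.85%, 2.43% and 2.46%. Plasmacytoid dendritic cells lay at 2.63 to 2.93% and endothelial cells at 2.09 to 2.67%, close to B cells. Cells with hepatocyte markers held 0.326 to 0.515%. Leukocytes thus gave this small set of genes several times the share that cells with hepatocyte markers did. Of the latter, 12 of 26 in Naïve, 4 of 7 in ConA+Veh and 90 of 177 in ConA+FICZ held under 1000 UMIs. Their median mitochondrial share was 0.0% in Naïve and ConA+FICZ and 17.0% in ConA+Veh, and whether they were intact cells was not tested.

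**Figure D1:**
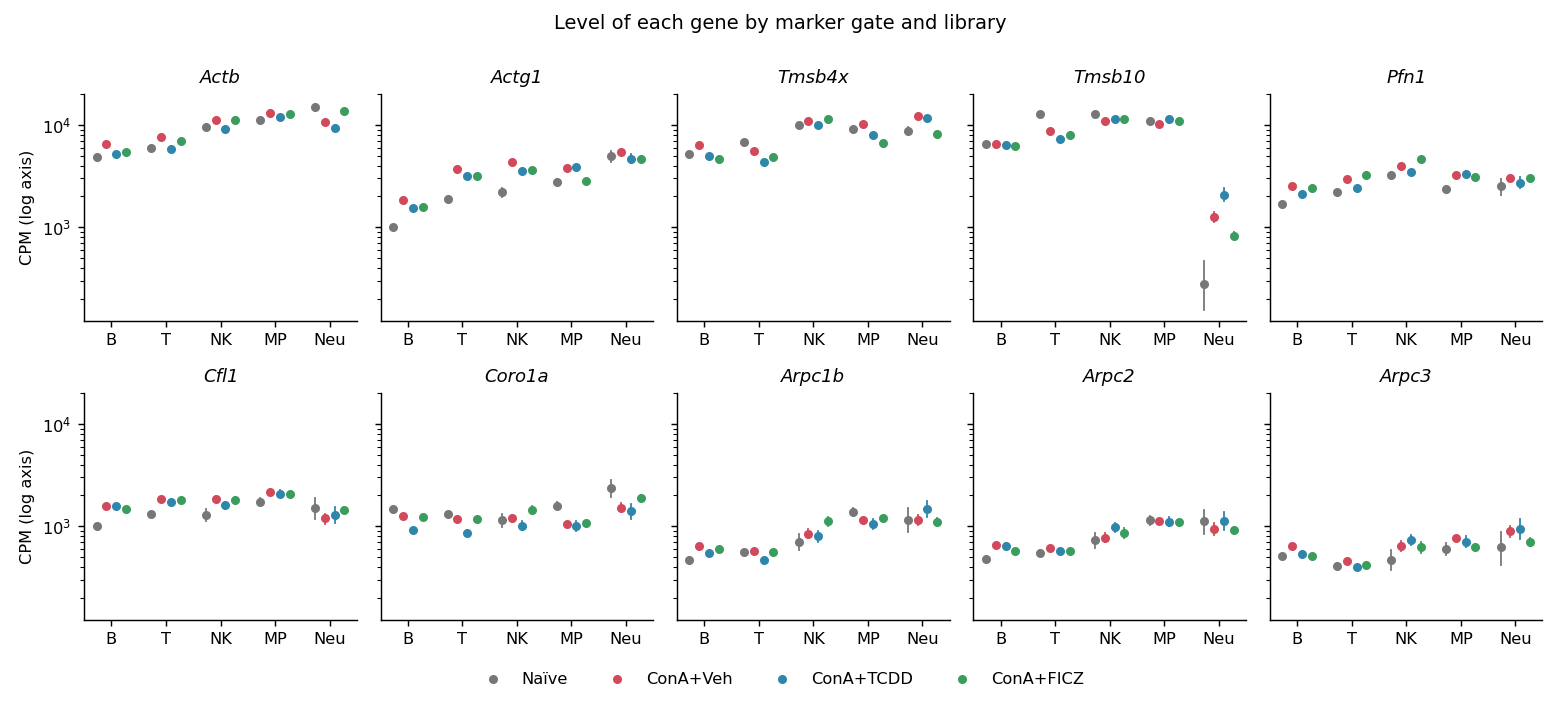
Level of each of the 10 genes in UMIs per 1000000 (CPM, log axis) in the B, T, NK, mononuclear phagocyte and neutrophil gates of the 4 libraries. Points are sums over the cells of a gate and bars are 95% Poisson intervals. Actb is highest in mononuclear phagocytes, NK cells and neutrophils, Actg1 lies higher in the 3 ConA libraries than in Naïve in B, T and NK cells, and Tmsb10 drops to 281 to 2082 CPM in neutrophils.

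Actb, the beta-actin gene (chr5:142903115-142906754 of GRCm38, minus strand), was lowest in B or endothelial cells and highest in phagocytes among 7 gates, and stood at 1200 to 1771 CPM in hepatocyte-marked cells. In CPM, the UMIs of a gene per 1000000 UMIs of the gate, it stood in B cells at 4906 in Naïve, 6449 in ConA+Veh, 5159 in ConA+TCDD and 5435 in ConA+FICZ. In mononuclear phagocytes the values were 11088, 13189, 11902 and 12782. Neutrophils or mononuclear phagocytes led in every library, and 7 of the 24 pairs of neighbours in the order of 7 gates had overlapping intervals.

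Within each of the B, T, NK and mononuclear phagocyte gates Actb was higher in ConA+Veh than in Naïve. The log2 ratio was 0.39 in B cells (interval 0.37 to 0.42), 0.36 in T cells, 0.23 in NK cells and 0.25 in mononuclear phagocytes. Under the alternative settings other than UMIs per cell it ranged from 0.035 to 0.49 in B cells and from 0.28 to 0.41 in T cells. The ranges were 0.17 to 0.30 in NK cells and 0.19 to 0.36 in mononuclear phagocytes. Neutrophils went the other way, with a log2 ratio of -0.48 on 24 Naïve and 100 ConA+Veh cells. Over the 16 combinations of the 4 gates and 4 libraries Actb, a gene often used as a constant reference, varied 2.69-fold. That range ran from Naïve B cells to ConA+Veh mononuclear phagocytes. Between libraries within a gate it varied 1.314-fold in B cells, 1.315-fold in T cells, 1.235-fold in NK cells and 1.189-fold in mononuclear phagocytes.

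Actg1, the gamma-actin gene (chr11:120345690-120348542, minus strand), showed the largest difference of the 10 genes between ConA+Veh and Naïve in B, T and NK cells. In T cells it stood at 1874 CPM in Naïve, 3710 in ConA+Veh, 3132 in ConA+TCDD and 3162 in ConA+FICZ. In B cells the values were 1009, 1849, 1524 and 1575 CPM, and in NK cells 2198, 4354, 3537 and 3597 CPM. In each of these gates the 3 ConA libraries lay above Naïve, and ConA+Veh was the highest.

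For Actg1 the log2 ratio of ConA+Veh over Naïve was 0.87 in B cells (interval 0.81 to 0.94), 0.98 in T cells (0.93 to 1.04) and 0.99 in NK cells (0.83 to 1.15), that is 1.83-fold, 1.98-fold and 1.98-fold. Endothelial cells gave 0.98 (0.76 to 1.20), in a gate whose own markers moved with it, Clec4g from 2413 to 7.02 CPM, Stab2 from 1328 to 129.9 CPM and Oit3 from 1065 to 77.2 CPM, and the part of that change in the ratio was not tested. Differences were smaller in mononuclear phagocytes, at 0.45 (0.35 to 0.55). In neutrophils the ratio of 0.14 had an interval that held 0, and plasmacytoid dendritic cells, with 21 Naïve and 18 ConA+Veh cells, stood at 1933 and 1409 CPM. CD8 T cells differed more (1.32, from 1454 to 3628 CPM) than CD4 T cells (0.76, from 2330 to 3949 CPM). In the 4 main gates this direction was kept under each of the 8 alternative settings tried. Its size was not kept. Under the settings other than UMIs per cell the Actg1 ratio ranged from 0.38 to 0.97 in B cells and from 0.77 to 1.14 in T cells. The ranges were 0.60 to 1.06 in NK cells and 0.24 to 0.46 in mononuclear phagocytes.

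Cells in division were unevenly spread, with 15 of 498 T cells in Naïve but 479 of 829 in ConA+Veh holding at least 2 of 8 cell cycle markers. Among T cells with fewer than 2 such markers, called non-cycling, Actg1 still stood at 1437 CPM in Naïve and 3058 CPM in ConA+Veh, a log2 ratio of 1.09 (1.02 to 1.16). Within the ConA libraries cycling T cells held more Actg1 than non-cycling T cells, by a log2 ratio of 0.35 in ConA+Veh, 0.81 in ConA+TCDD and 0.89 in ConA+FICZ. The difference from Naïve was thus as large among the T cells with fewer than 2 of these markers. In ConA+Veh those cells held a median of 4105.5 UMIs against 12227 in cycling T cells, so shallow cells in division may be among them.

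Both AhR ligand libraries held less Actg1 than ConA+Veh in lymphocytes. The log2 ratio of ConA+TCDD over ConA+Veh was -0.28 in B cells, -0.24 in T cells and -0.30 in NK cells, and that of ConA+FICZ over ConA+Veh was -0.23, -0.23 and -0.28. ConA+TCDD and ConA+FICZ could not be told apart in these gates, where the interval of their log2 ratio was -0.11 to 0.01 in B cells, -0.04 to 0.01 in T cells and -0.13 to 0.09 in NK cells. Mononuclear phagocytes separated them, at 3837 CPM in ConA+TCDD (28 cells) and 2805 CPM in ConA+FICZ (206 cells), a log2 ratio of 0.45 (0.36 to 0.54).

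Of the 9 members matched in the RefSeq promoter table (GRCm38.p6, 250 bases before to 50 after each start site; Actb was without an entry), Actg1 alone held a CArG box, the site read by serum response factor. The box was in 1 of the 12 promoters of these 9 members and in 1.63% of all 32851 promoters of that length, on either strand. The 203 bases upstream of the Actg1 gene of GENCODE vM21 (chr11:120348543-120348745, minus strand, read 5′ to 3′) are shown because Actg1 differed most with ConA. Capitals mark the box. It lies 80 bases before the RefSeq start site, which is inside that gene and beyond the last base printed.

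Actg1 upstream: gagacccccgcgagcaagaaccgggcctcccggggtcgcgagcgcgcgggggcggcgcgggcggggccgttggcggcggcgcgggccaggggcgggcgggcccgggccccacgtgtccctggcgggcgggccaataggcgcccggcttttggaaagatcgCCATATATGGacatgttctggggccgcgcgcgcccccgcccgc

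The AhR core GCGTG, on either strand, was in 9 of the 12 promoters of these 9 members and in 32.4% of all promoters. By gene it was found for 7 of the 9 (Tmsb4x, Tmsb10, Pfn1, Cfl1, Arpc1b, Arpc2 and Arpc3). GGGCGG was in all 12 member promoters against 35.7%, CCAAT in 2 (Actg1 and Cfl1) against 37.4%, and TATAAA in none of the 12 against 13.6%. A match describes the letters only, and binding was not measured.

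Actb and Actg1 encode nearly the same protein, and their coding sequences (GENCODE vM21), both of 1128 bases, were identical at 1000 positions, with 120 of the 128 differences at the third codon position. The longest identical run was 62 bases, so reads inside such runs cannot be told apart, and how they were assigned is not given in the sources used here. The ratio of Actg1 to Actb UMIs is therefore compared only between libraries and gates. In T cells it was 0.316 in Naïve, 0.488 in ConA+Veh, 0.541 in ConA+TCDD and 0.452 in ConA+FICZ. In B cells it was 0.206, 0.287, 0.295 and 0.290, and in NK cells 0.230, 0.389, 0.389 and 0.320. The balance of the actins was shifted towards Actg1 in each ConA library in these lymphocyte gates, and in mononuclear phagocytes it was 0.250, 0.287, 0.322 and 0.219, so that ConA+FICZ lay below Naïve there.

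**Figure D2:**
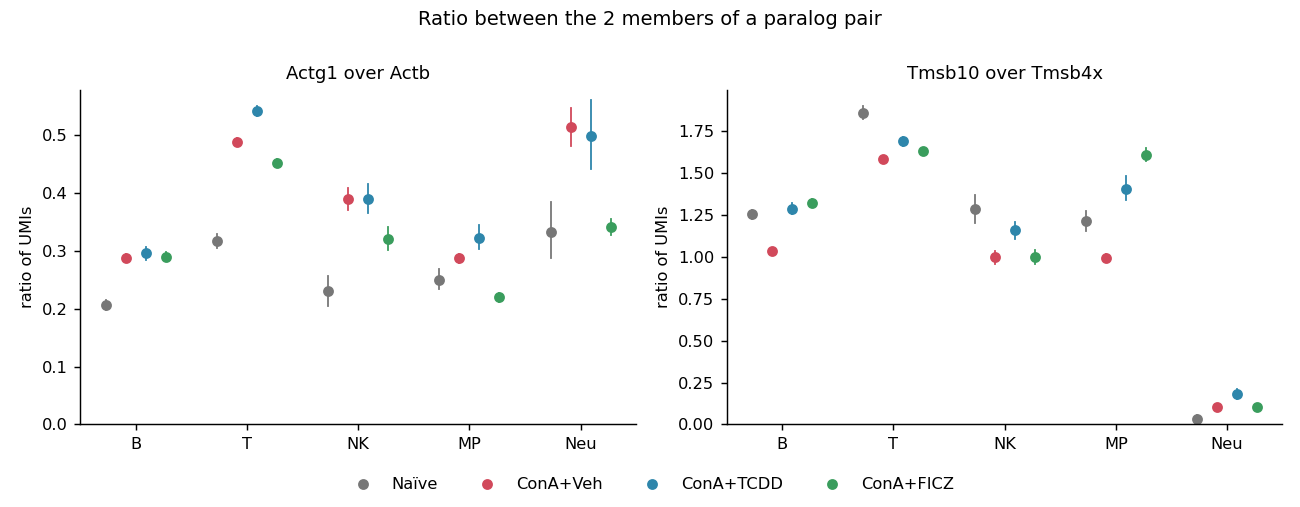
UMIs of Actg1 per UMI of Actb and of Tmsb10 per UMI of Tmsb4x in each gate and library, with 95% intervals from the binomial distribution. The actin ratio in B, T and NK cells is lowest in Naïve, and the thymosin ratio in neutrophils is 0.032 to 0.1795 against 0.995 to 1.86 in the other gates plotted.

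The thymosins parted from each other by cell type. Tmsb4x lies on chrX:167207093-167209315 and Tmsb10 on chr6:72957347-72958748, both on the minus strand. Their coding sequences (GENCODE vM21, stop codon included) are 135 bases each and identical at 95 positions, with no identical run above 10 bases. They are shown because the counts of the pair could be told apart, unlike the long shared runs of the actins, and capitals mark the 40 positions at which they differ.

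Tmsb4x: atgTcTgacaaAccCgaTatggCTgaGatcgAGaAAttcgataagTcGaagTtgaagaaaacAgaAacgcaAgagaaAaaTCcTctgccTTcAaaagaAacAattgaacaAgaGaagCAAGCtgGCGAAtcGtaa
Tmsb10: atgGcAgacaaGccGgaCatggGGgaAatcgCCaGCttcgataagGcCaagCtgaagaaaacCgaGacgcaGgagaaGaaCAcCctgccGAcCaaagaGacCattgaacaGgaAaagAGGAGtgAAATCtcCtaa

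Tmsb10 was highest in NK cells in every library and lowest in neutrophils among 7 gates, with overlapping intervals in 5 of 24 pairs of neighbours. The NK interval overlapped that of T cells in Naïve and of mononuclear phagocytes in ConA+TCDD. Neutrophils overlapped endothelial cells in ConA+TCDD. In neutrophils Tmsb10 stood at 281 CPM in Naïve (14 UMIs in 24 cells), 1265 in ConA+Veh, 2082 in ConA+TCDD and 828 in ConA+FICZ. Tmsb4x stood there at 8780, 12143, 11602 and 8136 CPM. The ratio of Tmsb10 to Tmsb4x in neutrophils was thus 0.032, 0.104, 0.1795 and 0.102. In T cells it was 1.86, 1.58, 1.69 and 1.63, and in B cells 1.25, 1.04, 1.29 and 1.32. With each cell thinned to 1000 UMIs, 20 to 56.2% of neutrophils held a Tmsb10 UMI, and 90 to 100% held one of Tmsb4x. Neutrophils were therefore low in one thymosin and not in the other.

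In T cells both thymosins took a smaller share of UMIs in ConA+Veh than in Naïve. Tmsb10 stood at 12745 CPM in Naïve, 8729 in ConA+Veh, 7297 in ConA+TCDD and 7986 in ConA+FICZ, and Tmsb4x at 6840, 5513, 4315 and 4895 CPM. The log2 ratio of ConA+Veh over Naïve was -0.55 for Tmsb10 and -0.31 for Tmsb4x, and these turned to 0.996 and 1.23 as UMIs per cell, a scale on which the median of all genes in T cells was itself 1.49. In non-cycling T cells Tmsb10 was still lower (-0.37) while Tmsb4x did not differ beyond counting error (0.03, interval -0.01 to 0.07).

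In B cells, NK cells and mononuclear phagocytes Tmsb4x was slightly higher in ConA+Veh than in Naïve, with log2 ratios of 0.29, 0.13 and 0.18. In endothelial cells Tmsb4x was instead lowest in ConA+Veh, at 5783 CPM, among the libraries with at least 20 such cells. Tmsb10 in B cells did not differ beyond counting error (0.02, interval -0.01 to 0.04). In mononuclear phagocytes Tmsb4x stood at 9064 CPM in Naïve, 10254 in ConA+Veh, 8037 in ConA+TCDD and 6727 in ConA+FICZ, while Tmsb10 stayed between 10207 and 11317 CPM. ConA+FICZ over ConA+Veh gave Tmsb4x a log2 ratio of -0.61 (-0.64 to -0.57) in that gate.

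Cells with hepatocyte markers gave an unusual thymosin pattern in 1 library. Tmsb10 stood there at 155 CPM in Naïve (7 UMIs in 26 cells), 171 CPM in ConA+Veh (3 UMIs in 7 cells) and 1512 CPM in ConA+FICZ (434 UMIs in 177 cells), and no such cell was gated in ConA+TCDD. Tmsb4x in the same cells stood at 88.6, 229 and 125 CPM. With cells thinned to 1000 UMIs, 72.4% of 87 ConA+FICZ cells (interval 61.8 to 81.5%) but 0 of 14 Naïve cells (up to 23.2%) held a Tmsb10 UMI, and 8.05% and 7.14% held one of Tmsb4x. The ratio of Tmsb10 to Tmsb4x in the ConA+FICZ cells, 12.1, lay far above the 0.102 to 1.63 of the B, T, NK, mononuclear phagocyte and neutrophil gates of that library, while its 8 cells with erythroid markers gave 16. The depth of the hepatocyte-marked cells was low, with a median of 993 UMIs in ConA+FICZ, where their median mitochondrial share was 0.0%.

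Pfn1 (chr11:70651850-70654644, minus strand), which adds monomers to growing filament ends, was highest in NK cells, with intervals that overlapped neutrophils in Naïve and mononuclear phagocytes in ConA+TCDD and 16 of 24 pairs of neighbours overlapping, and was higher in ConA+Veh than in Naïve in each main gate. In NK cells it stood at 3202 CPM in Naïve, 3995 in ConA+Veh, 3470 in ConA+TCDD and 4630 in ConA+FICZ, and in T cells at 2218, 2956, 2394 and 3216 CPM. The log2 ratio of ConA+Veh over Naïve was 0.57 in B cells (0.53 to 0.62), 0.41 in T cells, 0.32 in NK cells and 0.47 in mononuclear phagocytes. In T cells it became -0.04 when only cells of 2000 to 4000 UMIs were compared.

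Pfn1 was one of the members on which the AhR ligands parted. ConA+TCDD lay below ConA+FICZ, with log2 ratios of -0.43 in T cells (-0.46 to -0.40), -0.42 in NK cells (-0.52 to -0.31) and -0.17 in B cells (-0.22 to -0.12). In mononuclear phagocytes the interval held 0 (-0.0022 to 0.19).

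Cfl1 (chr19:5490455-5495201, plus strand), the filament-severing cofilin, was highest in mononuclear phagocytes in every library, with an interval that overlapped neutrophils in Naïve. Intervals overlapped in 20 of 24 pairs of neighbouring gates. Over the 16 combinations of main gate and library Cfl1 varied 2.12-fold. It stood in B cells at 1013 CPM in Naïve, 1579 in ConA+Veh, 1578 in ConA+TCDD and 1463 in ConA+FICZ. In T cells the values were 1317, 1847, 1709 and 1815 CPM. All 3 ConA libraries lay above Naïve in both gates, with log2 ratios of ConA+Veh over Naïve of 0.64 in B cells (0.58 to 0.70), 0.49 in T cells, 0.53 in NK cells and 0.30 in mononuclear phagocytes. Under the alternative settings other than UMIs per cell the ratio ranged from 0.0042 to 0.53 in T cells and from 0.25 to 0.73 in B cells. The ranges were 0.44 to 0.65 in NK cells and 0.30 to 0.53 in mononuclear phagocytes. In B cells ConA+TCDD and ConA+Veh differed by a log2 ratio of -0.00054 (-0.06 to 0.06).

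Coro1a (chr7:126699773-126707787, minus strand), the coronin of blood cells, followed another course and was lowest in ConA+TCDD in lymphocytes. In B cells it stood at 1483 CPM in Naïve, 1264 in ConA+Veh, 914 in ConA+TCDD and 1229 in ConA+FICZ. In T cells the values were 1333, 1184, 859 and 1190 CPM, and in NK cells 1142, 1203, 1012 and 1454 CPM. ConA+TCDD was the lowest library in each of these gates.

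For Coro1a the log2 ratio of ConA+TCDD over ConA+Veh was -0.47 in B cells (-0.54 to -0.39), -0.46 in T cells (-0.51 to -0.42) and -0.25 in NK cells (-0.44 to -0.06). Against ConA+FICZ it was -0.43, -0.47 and -0.52, all with intervals below 0, while ConA+FICZ and ConA+Veh did not differ beyond counting error in B and T cells. In cells thinned to 1000 UMIs a Coro1a UMI was found in 48.3% of T cells in ConA+TCDD against 61.3% in ConA+Veh and 63.4% in ConA+FICZ, and in 47.2% of B cells against 65.3% and 65.0%. Without thinning the shares of T cells were 77.3%, 87.3% and 93.1%.

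In mononuclear phagocytes Coro1a was highest in Naïve, as in B and T cells, at 1592 CPM against 1050, 1003 and 1085 CPM. The log2 ratio of ConA+Veh over Naïve was -0.60 (-0.74 to -0.46) and became 0.069 as UMIs per cell. ConA+TCDD was again the lowest library, by a log2 ratio of -0.07 to ConA+Veh. Neutrophils also ran from 1399 CPM in ConA+TCDD, the lowest, to 2345 CPM in Naïve, the highest. Outside leukocytes Coro1a was low, since endothelial cells held 18.7 to 138 CPM and hepatocyte-marked cells 0 to 57.2 CPM. Cells with erythroid markers held 39.8 CPM in ConA+TCDD and 202 CPM in ConA+Veh. With cells thinned to 1000 UMIs, 0.00 to 7.81% of endothelial cells held a Coro1a UMI, and whether these came from other cells was not tested.

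The Arp2/3 subunits Arpc1b (chr5:145114215-145130705, plus strand), Arpc2 (chr1:74236084-74268209, plus strand) and Arpc3 (chr5:122391878-122414184, plus strand) form part of the complex that branches filaments. Arpc1b stood in B cells at 472 CPM in Naïve, 639 in ConA+Veh, 542 in ConA+TCDD and 596 in ConA+FICZ, and in mononuclear phagocytes at 1369, 1153, 1056 and 1200 CPM. Arpc2 in mononuclear phagocytes was nearly level, at 1141, 1132, 1112 and 1101 CPM, and in NK cells it stood at 729, 772, 984 and 868 CPM. Arpc3 stayed between 404 and 764 CPM over the 16 combinations. The first of these was thus more a phagocyte gene than the last, which had overlapping intervals in 21 of 24 pairs of neighbouring gates.

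All 3 subunits were higher in ConA+Veh than in Naïve in B cells, with log2 ratios of 0.43, 0.43 and 0.32. In T cells they were 0.04, 0.18 and 0.15, of which the first had an interval that held 0, and in mononuclear phagocytes Arpc1b gave -0.25 (0.42 as UMIs per cell, where the median of all genes was 0.73). In NK cells they were 0.27, 0.08 and 0.45, of which only the last had an interval above 0 (0.10 to 0.82). Also in NK cells, Arpc2 was higher in ConA+TCDD than in ConA+Veh (0.35, interval 0.14 to 0.56) and Arpc1b higher in ConA+FICZ than in ConA+Veh (0.39, 0.20 to 0.59). Of the other Arp2/3 subunits Arpc4 was higher in ConA+Veh in B cells (0.75) and T cells (0.60) and Arpc5l in B cells (0.67), while Actr2 and Actr3 stayed within 1.5-fold in all 4 gates. In mononuclear phagocytes 1 of the 6 other subunits measured was at least 1.5-fold higher and 0 lower.

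Set against all genes, the 10 did not stand out by size. A ratio of at least 1.5-fold in ConA+Veh over Naïve was found for 4 of the 40 combinations of member and main gate in the higher direction (Actg1 in B, T and NK cells and Cfl1 in B cells) and for 1 in the lower direction (Coro1a in mononuclear phagocytes). Over 17306 combinations of a gene and a gate with at least 100 UMIs, 18.6% were higher and 23.4% lower by that measure. The medians of the members were 0.41 in B cells, 0.17 in T cells, 0.25 in NK cells and 0.21 in mononuclear phagocytes, where those of all genes were -0.19, -0.05, 0.20 and 0.06. Among genes over 500 CPM the medians were 0.23, 0.16, 0.24 and 0.15. In cells of 2000 to 4000 UMIs the member median minus that of all genes was 0.29 in B cells but -0.28 in T cells, 0.04 in NK cells and -0.02 in mononuclear phagocytes.

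For ConA+TCDD over ConA+Veh 0 of 40 passed 1.5-fold in either direction, against 2.62% higher and 4.95% lower of 17553 combinations. All 10 members lay below 0 in T cells and, with Cfl1 and Arpc2 at 0 within counting error, in B cells, and 7 did in each of the other gates. Of all genes 46.3% lay below 0 in B cells, 57.6% in T cells, 56.1% in NK cells and 54.1% in mononuclear phagocytes. The medians of the members were -0.25 in B cells, -0.27 in T cells, -0.17 in NK cells and -0.05 in mononuclear phagocytes, where those of all genes were 0.02, -0.05, -0.05 and -0.03 and those of genes over 500 CPM 0.0045, 0.04, 0.04 and 0.05.

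For ConA+FICZ over ConA+Veh 0 of 40 were higher and 1 lower by 1.5-fold (Tmsb4x in mononuclear phagocytes), against 3.62% and 4.06% of 19772 combinations. In B cells all 10 members lay below 0, in T cells 8, in NK cells 3 and in mononuclear phagocytes 7, where of all genes 46.8%, 50.8%, 53.2% and 41.8% did. The medians of the members were -0.15, -0.11, 0.08 and -0.05, and those of all genes 0.02, -0.0071, -0.03 and 0.07. Both ligand comparisons share the ConA+Veh library. The summed share in ConA+TCDD over ConA+FICZ gave a log2 ratio of -0.02 in B cells, -0.19 in T cells, -0.18 in NK cells and 0.07 in mononuclear phagocytes.

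**Figure D3:**
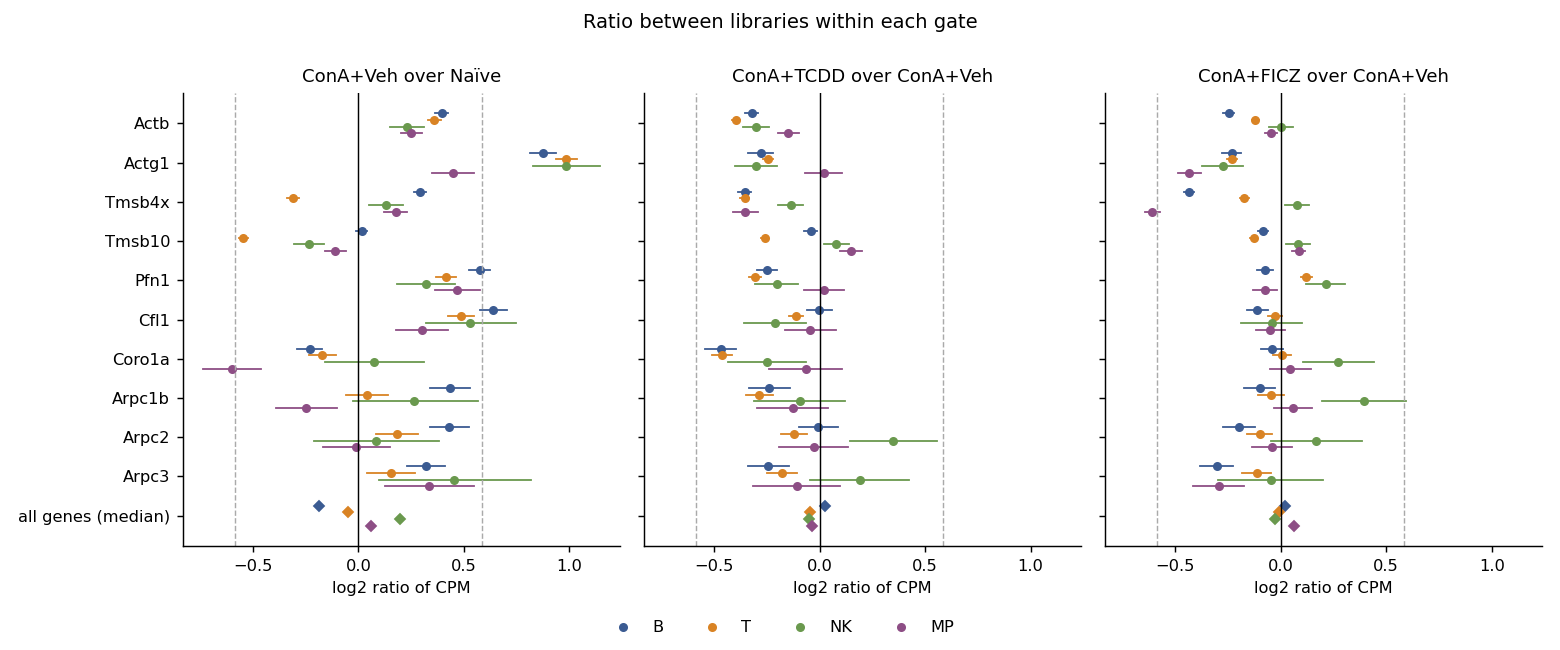
Log2 ratio of the level of each member in 4 gates, for ConA+Veh over Naïve and then for each AhR ligand library over ConA+Veh (TCDD, FICZ), with 95% binomial intervals. Diamonds give the median of all genes and dashed lines 1.5-fold. Actg1 in B, T and NK cells lies at 0.87 to 0.99 in the first comparison, and no member passes the lines in the second. Of 40 directions in each comparison 27, 25 and 21 were kept under all 8 alternative settings, 8, 5 and 6 turned as UMIs per cell alone, a scale that shifts all genes of a gate alike, and 5, 10 and 13 turned under other settings.

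T cells were not uniform, and the lower share in ConA+TCDD was uneven among them. The 10 genes held 3.54% of UMIs in non-cycling T cells in ConA+Veh (350 cells), 2.47% in ConA+TCDD (437 cells) and 2.67% in ConA+FICZ (325 cells), against 3.31% in Naïve (483 cells). In cycling T cells the shares were 3.26%, 2.83% and 3.31%. ConA+TCDD over ConA+Veh gave a log2 ratio of -0.52 (-0.54 to -0.50) in non-cycling and -0.20 (-0.21 to -0.19) in cycling T cells. In the non-cycling cells Coro1a had -0.86, Tmsb4x -0.83, Actb -0.62 and Actg1 -0.52. By lineage the log2 ratio was -0.29 in CD8 T cells (3.17% to 2.59%) and -0.10 in CD4 T cells (3.27% to 3.05%). CD8 and CD4 T cells were 407 and 127 of 829 T cells in ConA+Veh and 276 and 87 of 687 in ConA+TCDD. The T cells in neither group were not compared.

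A state of T cells with at least 2 UMIs of Rbm3, an RNA-binding protein induced by cold, and none of Cd52, a surface antigen of lymphocytes, moved with that difference. It held 13 cells in Naïve, 7 in ConA+Veh, 140 in ConA+TCDD and 21 in ConA+FICZ, and in these cells the 10 genes gave 2.46%, 1.22%, 1.72% and 1.19% of UMIs. The other T cells gave 3.40%, 3.33%, 2.82% and 3.12%, so that ConA+TCDD remained the lowest library without the state. All 10 members were lower in the state than in other T cells of the same library in ConA+TCDD (median log2 ratio -1.01) and in ConA+FICZ (-1.33), and Coro1a most, at -2.28 and -2.91. The state is known from earlier results on these libraries and was not chosen by the members, and its part in the ConA+TCDD difference is given by these shares alone. The same rule held 47 B cells in ConA+TCDD and 23 in ConA+FICZ. They gave the members 1.95% and 1.42% of UMIs, against 2.47% in the other B cells of each library. In ConA+TCDD 8 of the 10 members had intervals below 0 and 1 above, and in ConA+FICZ 7 and 0.

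**Figure D4:**
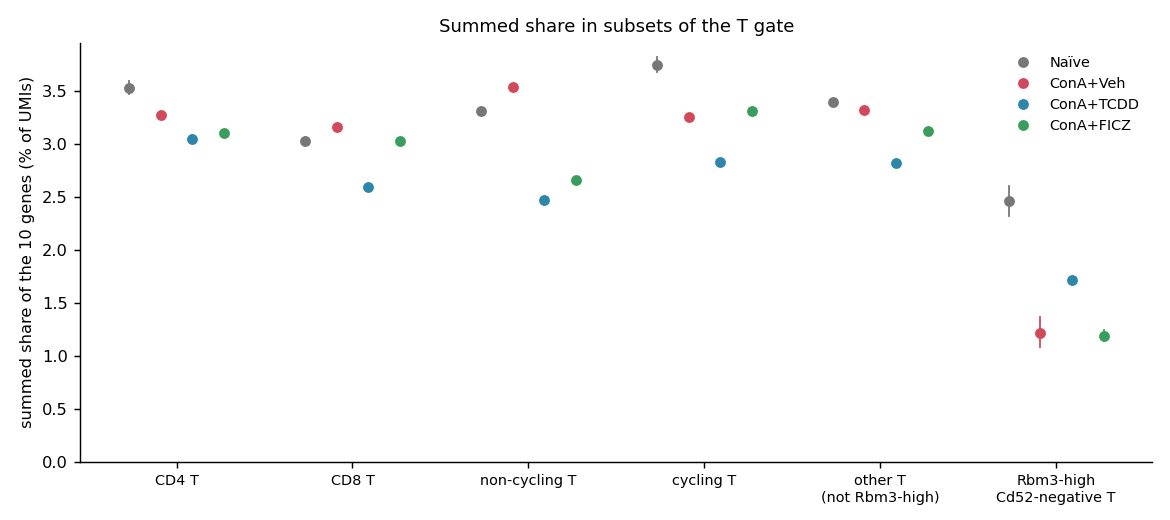
Summed share of UMIs of the 10 genes in subsets of the T gate by library, with 95% binomial intervals. The state with Rbm3 and without Cd52 lies lowest in each library, at 1.19 to 2.46%, and non-cycling T cells lie at 2.47% in ConA+TCDD against 3.54% in ConA+Veh.

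The spread between cells, as the variance over the mean, was wider in the ConA libraries than in Naïve in B, T and NK cells and in mononuclear phagocytes. Thinned to 1000 UMIs per cell, the sum of the 10 genes in T cells had a median of 34 UMIs in Naïve, 32 in ConA+Veh, 23 in ConA+TCDD and 29 in ConA+FICZ. The 10th percentile of cells lay at 21, 7, 8 and 14 UMIs, and the variance over the mean was 3.94, 9.45, 7.70 and 5.59. In NK cells that quotient was 3.95, 6.42, 7.98 and 4.70 in the same order. In B cells it was 2.67, 3.58, 3.65 and 3.17, and in mononuclear phagocytes 2.95, 4.41, 4.09 and 3.36.

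Some cells held at least 2% of UMIs from the nuclear RNAs Malat1, Neat1 and Kcnq1ot1, a limit set after the data had been seen. In the ConA libraries such cells gave the members a low share in T, B and NK cells and in mononuclear phagocytes. The share was also lower in such cells of Naïve in these gates, though by less in T, B and NK cells. In the T gate there were 67 such cells in Naïve, 58 in ConA+Veh, 21 in ConA+TCDD and 12 in ConA+FICZ. They gave the 10 genes 3.11%, 0.870%, 0.958% and 1.40% of UMIs, against 3.39%, 3.35%, 2.70% and 3.09% in the other T cells. In ConA+Veh they held a median of 1414 UMIs with 15.7% mitochondrial, against 8192 UMIs with 2.72% in the others, while Cd3e stood at 1006 and 572 CPM and Ptprc, the CD45 gene, at 5313 and 679 CPM. The same was seen in B cells, at 1.02% against 2.88% in ConA+Veh and 0.744% against 2.47% in ConA+TCDD. Naïve B cells gave 1.835% against 2.338%. In NK cells the shares were 3.94% against 4.26% in Naïve, 1.62% against 4.85% in ConA+Veh, 2.97% against 4.32% in ConA+TCDD and 3.26% against 4.87% in ConA+FICZ. Mononuclear phagocytes gave 2.09% against 4.31% in Naïve (4 such cells), 2.12% against 4.72% in ConA+Veh (7) and 3.10% against 4.245% in ConA+FICZ (8). None of those in ConA+TCDD reached the limit. In neutrophils the shares were 3.73% (3.50 to 3.97%) against 3.83% in ConA+Veh and 3.41% against 3.71% in ConA+TCDD, with overlapping intervals, and 2.91% against 3.67% in ConA+FICZ. Naïve neutrophils gave 2.46% (2.09 to 2.87%, 6 such cells) against 4.01% (3.83 to 4.20%). In Naïve T cells with as much nuclear RNA the median member had a log2 ratio of -0.08 to the other T cells, and in those of ConA+Veh -1.98.

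Leaving these cells out changed the comparisons between libraries little, since the log2 ratio of the summed share in T cells was -0.02 in ConA+Veh over Naïve and -0.31 in ConA+TCDD over ConA+Veh. Within a gate the deeper cells gave the members the larger share in all 16 combinations but Naïve T cells (3.36% against 3.43% in the shallower cells). Depth differed between the libraries, and its part in their differences was not tested beyond the alternative settings.

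**Figure D5:**
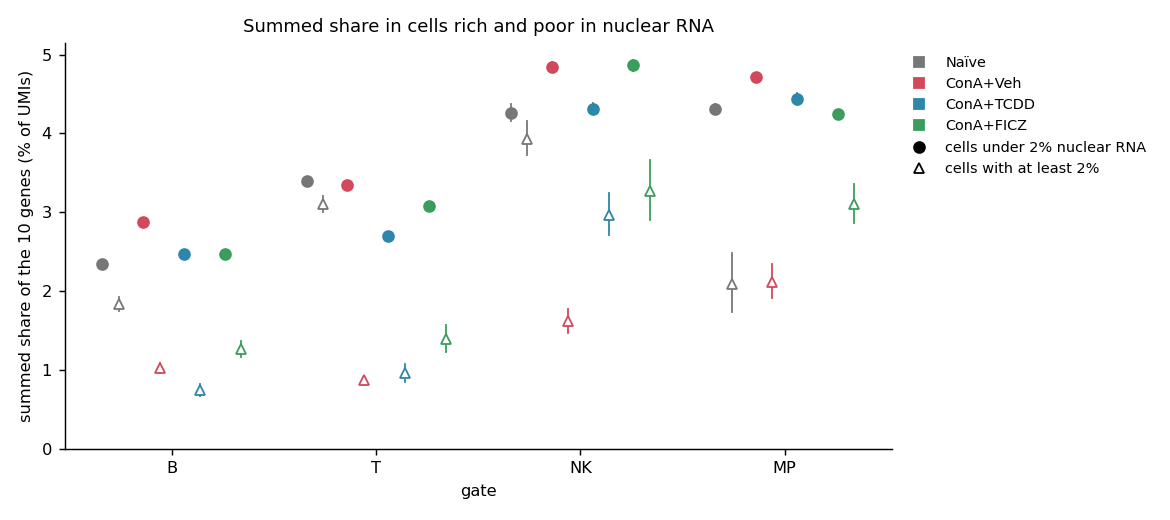
Summed share of UMIs of the 10 genes in cells with under 2% and at least 2% of UMIs from 3 nuclear RNAs, by gate and library, with 95% binomial intervals. In ConA+Veh T cells the shares are 3.35% and 0.870%, and in Naïve T cells 3.39% and 3.11%.

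Across the 29 combinations of a gate and a library with at least 20 cells, the genes whose level followed the sum of the 10 members most closely among 2837 genes were Sh3bgrl3 (Pearson's r = 0.946), Ppp1r18 (0.939), Wdr1 (0.936), Tpm3 (0.935) and Arpc4 (0.932). Wdr1 is a cofactor of cofilin, Tpm3 a tropomyosin and Arpc4 another Arp2/3 subunit. Of the members themselves Actb ranked 1 (0.961), and Coro1a ranked 126 (0.771) and Tmsb10 381 (0.650). The points share libraries and the members are part of the sum, so these values only describe the likeness. Points of cells with erythroid or hepatocyte markers lay at 3346 to 6534 summed CPM and all others at 20872 or more, and r without them was not computed. Between single cells thinned to 1000 UMIs the median r over the 45 pairs was 0.04 to 0.19, and the highest pair of a gate and library reached 0.19 to 0.68. Counting error lowers r for members with few UMIs at that depth, so how closely the members are related within a cell was not tested.

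The wider actin machinery was also followed in ConA+Veh over Naïve. Of 83 other actin genes listed by role, 81 were in the matrices. In B cells 5 of 73 measured were at least 1.5-fold higher and 16 lower, in T cells 5 and 18 of 74, in NK cells 4 and 8 of 41 and in mononuclear phagocytes 2 and 18 of 65, with medians of -0.11, -0.09, -0.04 and -0.12. Of all genes 16.9% were higher and 30.0% lower in B cells, 19.6% and 22.7% in T cells, 28.4% and 15.9% in NK cells and 16.4% and 13.7% in mononuclear phagocytes. Tagln2, a transgelin that binds filaments, was higher in all 4 gates, with log2 ratios of 1.20 in B cells, 0.71 in T cells, 1.07 in NK cells and 0.54 in mononuclear phagocytes, and the myosin light chain Myl12a likewise (0.81, 0.34, 0.59 and 0.61).

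Among the genes lower by that measure in at least 3 gates, those with the lowest mean log2 ratios were Myo1f, Evl, Fmnl1, Dock2 and Myh9. Fmnl1, a formin that elongates unbranched filaments, gave -1.19 in B cells, -0.66 in T cells, -0.96 in NK cells and -0.89 in mononuclear phagocytes. Evl, which protects growing filament ends, gave -0.63, -1.59, -1.16 and -0.55, and Myh9, the heavy chain of non-muscle myosin II, -1.01, -0.43, -0.89 and -1.16. These are ratios of shares of UMIs, and the cells of ConA+Veh held more UMIs.

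In ConA+TCDD over ConA+Veh few of these genes passed 1.5-fold, with 1 higher and 7 lower of 72 in B cells, 0 and 5 of 75 in T cells, 2 and 0 of 44 in NK cells and 0 and 4 of 63 in mononuclear phagocytes. Of all genes 3.15% were higher and 4.14% lower in B cells, 1.53% and 3.62% in T cells, 3.21% and 5.60% in NK cells and 4.34% and 9.96% in mononuclear phagocytes. The medians of these actin genes, -0.20, -0.25, -0.13 and -0.14, lay below those of all genes in each gate, as those of the 10 members did. In ConA+FICZ over ConA+Veh the counts were 0 and 1 of 73, 0 and 1 of 76, 2 and 0 of 47 and 2 and 0 of 70, where the shares of all genes were 3.28% and 2.57%, 1.83% and 5.65%, 3.92% and 5.96%, and 7.46% and 2.80%.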

How the data were processed

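Raw UMI counts per gene and cell were deposited for 4 libraries prepared with the 10x Genomics 5′ kit. The authors aligned the reads to mm10 and counted with Cell Ranger 3.0.2, with no normalization. The smallest cells held 500 or 501 UMIs. The 10 members, the markers and the other lists were chosen with earlier results of these data known.

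Counts were summed over the cells of a gate and divided by all UMIs of the gate (CPM), with intervals at 95% that were exact Poisson for a sum and exact binomial for a share or a ratio. Genes with at least 100 UMIs in the compared libraries entered the background, and 1.5-fold was counted. Cells were thinned to 1000 UMIs, and shallower cells left out, for shares of cells with a UMI and for spread. CD8 T cells held Cd8a or Cd8b1 and no Cd4, and CD4 T cells the reverse. All members are named. Other actin genes, apart from the other Arp2/3 subunits, were named when past 1.5-fold in the same direction in at least 3 of the 4 main gates. At most 5 per direction and comparison were named, by the mean log2 ratio. The 5 genes most like the members were named by r of log2(CPM + 10). The scripts were tested on simulated data and run in Python 3.11.15 with numpy 2.4.6, scipy 1.17.1, pandas 2.3.3 and matplotlib 3.10.9. With 1 library per condition, a test over single cells, which are not replicates, was not used.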

Additional observations from a re-analysis of the deposited data

Results flagged for a closer look

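Tmsb10 moved in opposite directions in neutrophils and T cells. The log2 ratio of ConA+Veh over Naïve was 2.17 in neutrophils (interval 1.41 to 3.06) and -0.55 in T cells (-0.57 to -0.53), where it turned to 0.996 as UMIs per cell. The neutrophil value rests on 14 UMIs in 24 Naïve cells, and with 1 library per condition the difference between these gates was not tested.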

How the results depend on the processing

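Values are log2 ratios of the summed share of the 10 genes unless named. No paired analysis was possible because each condition had 1 library, and for the same reason no library could be left out. As UMIs per cell, ConA+Veh over Naïve gave 1.498 in B, 1.52 in T, 1.04 in NK cells and 0.80 in mononuclear phagocytes, ConA+TCDD over ConA+Veh -0.38, -0.46, -0.34 and 0.33, and ConA+FICZ over ConA+Veh -0.26, 0.10, -0.12 and -0.34. That scale multiplies all genes of a gate alike, and the medians of all genes in the first were 1.02, 1.49, 1.10 and 0.73. Counts past 1.5-fold, which therefore say nothing of the members, were 37 higher and 0 lower in the first, 2 lower in the second and 2 lower in the third, and Coro1a in mononuclear phagocytes turned to 0.069. With 3 markers, ConA+TCDD over ConA+Veh gave -0.21, -0.29, -0.057 and -0.12. With at least 1000 UMIs and at most 10% mitochondrial UMIs, ConA+Veh over Naïve gave 0.31 in B and 0.027 in T cells, ConA+TCDD over ConA+Veh -0.33 in T and -0.16 in NK cells, and ConA+FICZ over ConA+Veh -0.23 in B and -0.16 in T cells. With the mean share per cell, the first gave 0.16 in B, -0.16 in T cells and 0.16 in mononuclear phagocytes (2 lower), the second -0.27, -0.36 and -0.091 in B, T and NK cells, and the third -0.063 in T cells and -0.12 in mononuclear phagocytes. Without ribosomal and mitochondrial genes the first gave 0.39, -0.044 and 0.23 in B, T and NK cells, the second -0.27, -0.10 and -0.037 in T, NK cells and mononuclear phagocytes, and the third -0.17, -0.10 and -0.17 in B, T cells and mononuclear phagocytes. Without the members in the total, ConA+TCDD over ConA+Veh was -0.31 in T cells. Chosen after seeing the data, cells of 2000 to 4000 UMIs (4 mononuclear phagocytes in ConA+TCDD) gave 0.085, -0.36 and 0.083 in B, T cells and mononuclear phagocytes for the first (3 lower), -0.24, -0.53, -0.18 and 0.063 for the second (1 higher, 8 lower), and -0.33, 0.11, -0.077 and -0.015 for the third (2 higher, 2 lower). Likewise, cells under 2% nuclear RNA gave -0.17 in NK cells for the second and -0.12 in T and 0.00546 in NK cells for the third. The count lower in the first was 0 with 3 markers, with the depth and mitochondrial limits, and under 2% nuclear RNA. Of 120 ratios of single genes, 63 moved by less than their interval with the mean share per cell, 11 as UMIs per cell, 30 in the depth window and 103 to 120 under the other settings, and the cause was not tested. The 24 Naïve neutrophils and the hepatocyte-marked cells are few or shallow.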
